A study of Mus musculus with 18 samples.

Results

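Chemokines and their receptors were followed in mouse primary preadipocytes, the precursors of fat cells, as every gene symbol of the Ccl, Cxcl, Cx3cl, Ccr, Cxcr, Cx3cr and Ackr series together with Ccrl2. The rule used names only and found 48 symbols among the 17267 in the series, all 48 in undifferentiated cells and 33 in differentiated cells. They comprised 31 ligand symbols (20 CC, 10 CXC and Cx3cl1), 12 signalling receptors and 5 atypical receptors, Ackr1 to Ackr4 and Ccrl2. Among the ligands, 2 were pseudogene symbols of Ccl19.

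Chemokines are small secreted proteins that steer cells along concentration gradients by binding receptors coupled to G proteins. CXC ligands with the ELR motif attract neutrophils through Cxcr2, Cxcl9 and Cxcl10 attract activated T cells through Cxcr3, and Ccl2 attracts monocytes through Ccr2. Atypical receptors lack the usual G-protein signal, and most remove or transport the chemokines they bind. In fat depots Ccl2 is known for its part in macrophage recruitment.

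All cells were of WT mice and came from epididymal white adipose tissue (eWAT) wherever the design text names the depot. The undifferentiated cells formed 4 groups of 3 libraries each: control-diet (CD) cells given the cytokine TGF-b1 with SB431542, which blocks the kinase of the type I TGF-b receptor, CD cells given TGF-b1 alone, mock cells of mice fed a high-fat diet (HFD), and mock CD cells. A further 2 groups of 3 libraries, Itga5-High and Itga5-Low, had been sorted with an antibody to CD49e, the integrin alpha 5 protein, and then driven into adipogenic differentiation. No dose, treatment time, sex, age or diet length is given, SB431542 was not tested without TGF-b1, and the replicates are not said to be separate mice or cultures, so the p-values reflect library-to-library spread alone. Abundance is given in CPM, a gene's counts scaled to the library size as adjusted by TMM scaling, not to the raw total. Differences are given as log2 fold change ± SE from edgeR's quasi-likelihood fit over all genes of a table.

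Total counts ranged from 11154450 to 17288614 per library. Replicate libraries lay close together, and the ratio of chi-square to degrees of freedom ran between 1.15 and 1.26 over 18 pairs of replicates. Itga5 lay at 461 to 478 CPM in the Itga5-High libraries, against 325 to 334 CPM in the Itga5-Low ones. The 9 preadipocyte markers were all detected and summed to between 1452 and 3964 CPM in the undifferentiated groups, but 14 macrophage markers (among them Lyz2, Cd68, Csf1r and Ptprc) were also all detected there. Their sum was 1258 to 1272 CPM with TGF-b1 and SB431542, 675 to 692 CPM with TGF-b1, 2926 to 2959 CPM in HFD mock and 610 to 629 CPM in CD mock. In the sorted cells it was 45.2 to 46.1 CPM in the Itga5-High libraries, against 23.01 to 23.9 CPM in the Itga5-Low ones. In bulk RNA, fewer cells of a type and less RNA per cell cannot be told apart.

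**Figure D1:**
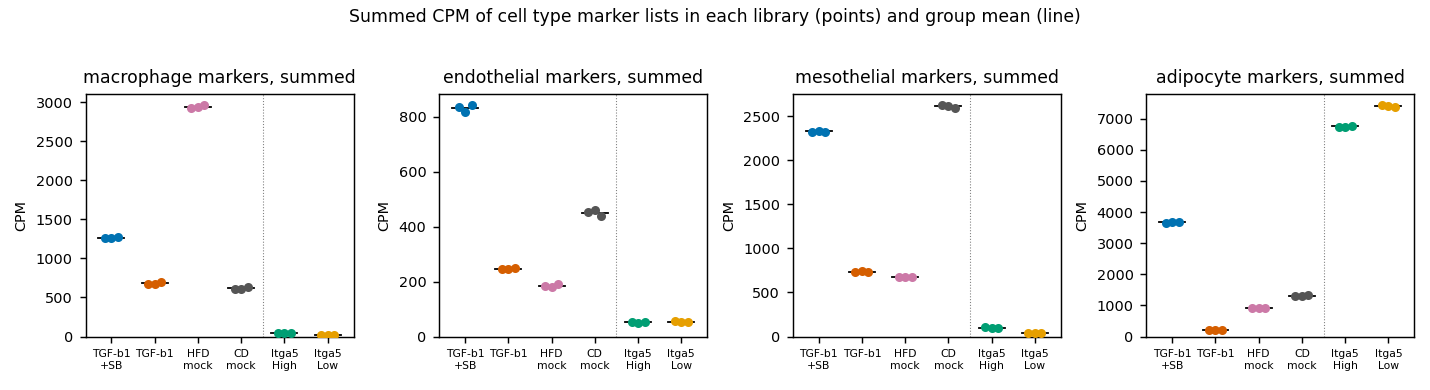
Summed CPM of the macrophage, endothelial, mesothelial and adipocyte marker lists in each library (points) with the group mean (line); the dotted line separates the undifferentiated groups from the sorted and differentiated ones. The macrophage sum is highest in HFD mock at 2926 to 2959 CPM, and the endothelial sum is highest with TGF-b1 and SB431542 at 818 to 843 CPM.

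Chemokine messages were dominated by Cxcl12, the homeostatic ligand of Cxcr4 and Ackr3, in all 6 groups. Per kilobase of transcript it stood at 559 ± 7.12 CPM with TGF-b1 and SB431542, 321 ± 6.92 CPM with TGF-b1, 478 ± 5.49 CPM in HFD mock and 612 ± 6.55 CPM in CD mock (SD, n = 3 libraries each). In the differentiated cells it stood at 207 ± 1.76 CPM per kilobase in Itga5-High and 428 ± 2.89 CPM per kilobase in Itga5-Low. Second place per length went to Ccl2 in each undifferentiated group and to Cxcl14 in each differentiated group. In Itga5-High the next places went to Ccl8, Ccl7 and Ccl2 at 75.1 ± 4.80, 43.9 ± 1.18 and 38.1 ± 1.38 CPM per kilobase. In HFD mock, Cxcl14 at 67.7 ± 2.22 and Ccl6 at 66.7 ± 1.39 CPM per kilobase lay within their spread of each other, as the ranges of 65.3 to 69.5 and 65.7 to 68.3 overlapped.

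The 48 symbols together took 0.238% to 0.242% of all counts with TGF-b1 and SB431542, 0.0938% to 0.0950% with TGF-b1, 0.170% to 0.171% in HFD mock and 0.181% to 0.185% in CD mock. Their share was 0.0884% to 0.0888% in the Itga5-High libraries, against 0.148% to 0.149% in the Itga5-Low ones, and 15 of the symbols had no entry there. Mean levels of at least 5 CPM were reached by 20 members with TGF-b1 and SB431542, 12 with TGF-b1, 20 in HFD mock, 15 in CD mock, 12 in Itga5-High and 11 in Itga5-Low. Of the 48 members, 33 passed the filter on low counts in undifferentiated cells, and of the 33 listed in differentiated cells 21 passed. Among these, Ccl17 and Cxcr6 passed through the TGF-b1 group alone, and Ccl21b, Cxcl2, Cxcl9 and Cxcl13 through the group with SB431542 alone, so a difference in these 6 was built into their being tested. Likewise, Ackr1 and Cxcl10 passed in the differentiated cells through Itga5-Low alone.

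The first question was what TGF-b1 and the block of its receptor did to chemokine genes of CD preadipocytes. With TGF-b1, most inflammatory ligands fell: Ccl2 was 2.04-fold, Ccl6 4.95-fold, Ccl9 7.25-fold and Cxcl5 47.4-fold lower than in mock cells. With SB431542 added, the same 4 ligands were higher than with TGF-b1 alone by 6.39-fold, 13.7-fold, 18.9-fold and 60.2-fold. A smaller set went the other way, with Cxcl14, Cxcr6, Ccl17 and Cx3cr1 higher with TGF-b1 than in mock and lower with SB431542 than with TGF-b1 alone. Ackr3, Ackr4 and Cx3cl1 also went this way, each by under 1 log2 unit with TGF-b1 against mock. The calls of Ackr3 and Cx3cl1 depended in part on the scaling. Of this set, Cxcr6 and Ccl17 passed the low-count filter through the TGF-b1 group alone, so their difference was built into their being tested. Ccl2, Ccl6 and Ccl9 were also 2.61-fold to 3.14-fold higher with TGF-b1 and SB431542 than in mock cells.

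Marker lists of cell types, that of preadipocytes included, moved in these comparisons too. With TGF-b1 against mock, 9 of 10 mesothelial, 6 of 6 adipocyte and 8 of 9 preadipocyte markers fell, and with SB431542 against TGF-b1 alone 8 of 10, 6 of 6 and 8 of 9 rose. The mesothelial sum was 2324 to 2333 CPM with TGF-b1 and SB431542, 729 to 744 CPM with TGF-b1 and 2594 to 2624 CPM in mock. The adipocyte sum was 3652 to 3691 CPM with TGF-b1 and SB431542, 211 to 221 CPM with TGF-b1 and 1299 to 1325 CPM in mock. The preadipocyte sum was 3949.9 to 3964 CPM with TGF-b1 and SB431542, 1452 to 1474 CPM with TGF-b1 and 2986 to 3004 CPM in mock. The part of these cell types in the chemokine changes was not tested.

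Against mock, 29 of the 33 tested members were called with TGF-b1, where 67.6% of all genes tested were: 7 were higher (33.4% of all genes) and 22 lower (34.2%). A change of at least 1 log2 unit was called in 22 members (14.8% of all genes), in 4 upward (3.59%) and in 18 downward (11.2%), and the libraries of both groups did not overlap in 30 (69.4% of all genes). The median change was -1.36 log2 over the members tested and -0.0165 over all genes. With SB431542 against TGF-b1 alone, 31 were called (79.7% of all genes), 24 of them higher (41.4%) and 7 lower (38.3%). The change reached 1 log2 unit in 25 (25.7% of all genes), upward in 20 (18.1%) and downward in 5 (7.66%), and 32 did not overlap (80.2%). The median was 2.05 log2 over the members tested and 0.037 over all genes. With TGF-b1 and SB431542 against mock, 26 were called (61% of all genes), 20 of them higher (30.6%) and 6 lower (30.4%). The change reached 1 log2 unit in 18 (10.7% of all genes), upward in 14 (7.83%) and downward in 4 (2.84%), and 26 did not overlap (64%). The median was 0.70 log2 over the members tested and 0.0063 over all genes. The medians were the same with members at 0 counts set to their bounds. Counts and medians of members include the 6 that passed the low-count filter through 1 of these groups alone. These 3 comparisons share their groups pairwise and are not independent of each other. Total counts in place of TMM scaling shifted log2 fold changes by -0.15, 0.26 and 0.11 in the order given here, as computed from the scaling factors.

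**Figure D2:**
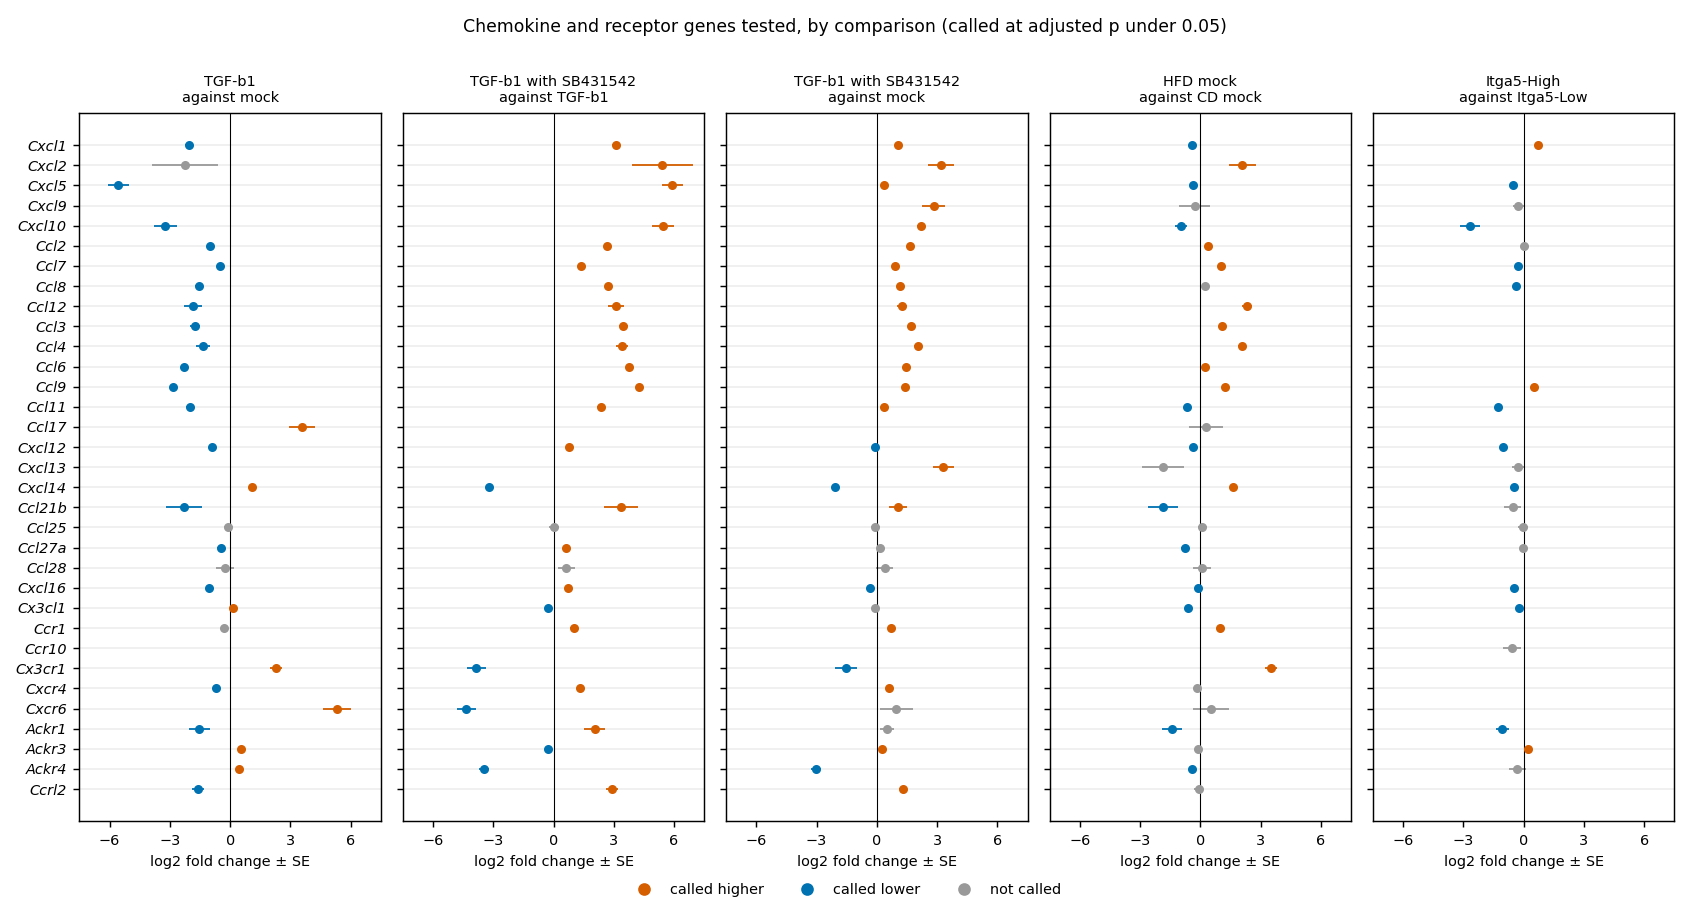
Log2 fold change ± SE of tested chemokine and receptor genes in 5 comparisons, ordered by role from ligands at the top to atypical receptors at the bottom; genes with a group at 0 counts or below the low-count filter have no point. With TGF-b1 against mock 22 members were called lower, and with SB431542 added to TGF-b1 24 were called higher.

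Of the 4 ELR ligands, which attract neutrophils, Cxcl1 and Cxcl5 fell with TGF-b1 against mock, Cxcl2 was not called and Cxcl3 was too low to be tested. Promoter windows of this family are shown because Cxcl1, Cxcl2 and Cxcl3, together with Cxcl10, carry the nuclear factor kB motif GGANTTTCC, searched on both strands. The motif stood in 6 of the 39 RefSeq windows of members and in 412 of all 32851 windows (15.4% against 1.25%), and Cxcl1, Cxcl2 and Cxcl3 are paralogs that share sequence. The windows, from GRCm38.p6, run from 250 bases before to 50 after the start and are written 5′ to 3′ on the gene's strand, with the kB match in capitals and, for Cxcl10, also the interferon response core AAANNGAAA. Cxcl1 is at chr5:90890995-90891294, Cxcl2 at chr5:90903649-90903948 and Cxcl3 at chr5:90785851-90786150 on the plus strand, and Cxcl10 at chr5:92348840-92349139 on the minus strand.
Cxcl1: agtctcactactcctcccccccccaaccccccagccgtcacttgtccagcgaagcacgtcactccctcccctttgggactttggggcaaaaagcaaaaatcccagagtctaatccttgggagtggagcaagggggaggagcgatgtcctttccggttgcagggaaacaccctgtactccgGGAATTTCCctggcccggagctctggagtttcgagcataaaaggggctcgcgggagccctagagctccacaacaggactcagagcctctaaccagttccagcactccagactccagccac
Cxcl2: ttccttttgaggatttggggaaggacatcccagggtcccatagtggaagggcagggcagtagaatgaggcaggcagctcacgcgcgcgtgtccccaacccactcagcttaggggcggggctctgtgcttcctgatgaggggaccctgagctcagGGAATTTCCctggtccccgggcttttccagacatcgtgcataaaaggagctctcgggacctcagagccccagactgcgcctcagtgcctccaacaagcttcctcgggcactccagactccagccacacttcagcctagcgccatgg
Cxcl3: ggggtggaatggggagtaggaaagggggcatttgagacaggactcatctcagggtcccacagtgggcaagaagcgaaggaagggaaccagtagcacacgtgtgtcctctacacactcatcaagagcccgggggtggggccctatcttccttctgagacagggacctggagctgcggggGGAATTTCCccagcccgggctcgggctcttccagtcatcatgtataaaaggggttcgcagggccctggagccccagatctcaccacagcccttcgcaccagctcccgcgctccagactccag
Cxcl10: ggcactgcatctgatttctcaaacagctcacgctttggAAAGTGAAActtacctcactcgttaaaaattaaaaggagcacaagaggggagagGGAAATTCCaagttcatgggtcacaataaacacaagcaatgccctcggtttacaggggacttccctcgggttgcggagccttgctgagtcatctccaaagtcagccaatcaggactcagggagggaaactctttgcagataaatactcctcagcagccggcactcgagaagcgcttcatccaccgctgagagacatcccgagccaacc
The kB match began 70 bases before the start in Cxcl1, 96 in Cxcl2, 72 in Cxcl3 and 158 in Cxcl10, and the interferon core of Cxcl10 began 212 bases before it. The other kB matches among members lay in Ccrl2 and Ccr3. Of the other motifs, AAANNGAAA stood in 5 member windows (12.8%, against 10.6% of all), the AP-1 site TGANTCA in 6 (15.4%, against 7.81%), the motif TTCNNNGAA in 2 (5.13%, against 8.30%) and CCAAT in 13 (33.3%, against 37.4%). Windows were matched for 34 of the 48 members. Among those without an entry were Ccl2, Ccl4, Ccl5, Ccl7, Ccl11, Ccl19-ps1, Ccl19-ps2, Ccl24, Ccr7, Ccr10, Cxcl5, Cxcl16 and Cxcr5.

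Cxcl1 stood at 13.6, 13.8 and 13.2 CPM with TGF-b1 and SB431542, at 1.96, 1.42 and 1.42 CPM with TGF-b1 and at 7.29, 6.51 and 5.74 CPM in CD mock. Cxcl5 stood at 13.1, 14.9 and 11.8 CPM with TGF-b1 and SB431542, at 0.256, 0.0887 and 0.27 CPM with TGF-b1 and at 10.2, 10.7 and 10.5 CPM in CD mock. All TGF-b1 libraries lay below all others for both genes, and Cxcl5 had 8 counts there over 3 libraries. Against mock, TGF-b1 changed Cxcl1 by -2.03 ± 0.20 log2 (adjusted p = 6.68e-13) and Cxcl5 by -5.57 ± 0.52 (adjusted p = 3.25e-22). With SB431542 against TGF-b1 alone the changes were 3.09 ± 0.19 for Cxcl1 and 5.91 ± 0.51 for Cxcl5. Cxcl1 then also exceeded mock by 1.06 ± 0.12 log2, while the 0.35 ± 0.10 of Cxcl5 was no longer called without replicate 2 of the SB431542 group (0.25). Cxcl2 stood at 1.66, 1.32 and 1.61 CPM with TGF-b1 and SB431542, at 0, 0 and 0.0674 CPM with TGF-b1 and at 0.176, 0.142 and 0.171 CPM in mock. Summed over libraries these were 62 counts with TGF-b1 and SB431542, 1 with TGF-b1 and 6 in mock, and Cxcl3 had at most 2 counts in any undifferentiated library. The 62 Cxcl2 counts against 1 gave a ratio of 58.0 with a counting interval of 10.02 to 2326, and the 1 TGF-b1 count lay in replicate 3. Its fall with TGF-b1 was called only with total counts (-2.36) or without that library (-4.14), without which the fitted rise with SB431542 was 7.30 in place of 5.42 ± 1.5 log2. Cxcl2 passed the low-count filter through the group with SB431542 alone, so that rise was built into its being tested.

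The interferon-responsive T cell attractants Cxcl9 and Cxcl10 moved in the same direction. Cxcl9 passed the low-count filter through the group with SB431542 alone, so its differences from that group were built into its being tested. Cxcl10 stood at 8.87, 7.72 and 8.45 CPM with TGF-b1 and SB431542, at 0.0853, 0.0887 and 0.337 CPM with TGF-b1 and at 1.85, 1.98 and 1.63 CPM in CD mock. The 3 groups did not overlap, and the changes were -3.24 ± 0.57 log2 with TGF-b1 against mock (adjusted p = 1.30e-08), 5.43 ± 0.55 with SB431542 against TGF-b1 alone (adjusted p = 1.41e-20) and 2.19 ± 0.20 with both agents against mock (adjusted p = 5.96e-14). Leaving out TGF-b1 replicate 3, which held most of the few Cxcl10 counts of its group, moved the first of these to -4.25 and the second to 6.43. Cxcl9 stood at 2.09, 1.25 and 2.0 CPM with TGF-b1 and SB431542, at 0 in the 3 TGF-b1 libraries and at 0.176, 0.425 and 0.0857 CPM in mock. It was at least 3.05-fold lower with TGF-b1 than in mock and at least 22.4-fold higher with SB431542 than with TGF-b1 alone, both against a floor of 3 counts over the group. The first bound rests on 9 mock counts, 6 of them in replicate 2, without which the mock count is at the floor and gives no fold. Its 2.83 ± 0.57 log2 with both agents against mock was 3.68 without CD mock replicate 2.

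The monocyte attractants Ccl2, Ccl7, Ccl8 and Ccl12, neighbours on chromosome 11 between 82035577 and 82116800 with the eosinophil attractant Ccl11, all fell with TGF-b1 and all rose with SB431542 relative to both TGF-b1 alone and mock. Ccl2 stood at 294, 291 and 284 CPM with TGF-b1 and SB431542, at 43.7, 45.9 and 46.2 CPM with TGF-b1 and at 92.1, 93 and 92 CPM in CD mock. Ccl7 stood at 95.8, 95 and 88.4 CPM with TGF-b1 and SB431542, at 35.2, 37.8 and 35.6 CPM with TGF-b1 and at 51.1, 50.7 and 49.7 CPM in CD mock. In both genes every library of a group stood apart from those of the other 2 groups. Ccl2 changed by -1.03 ± 0.042 log2 with TGF-b1 and Ccl7 by -0.48 ± 0.052 against mock, and by 2.68 ± 0.037 and 1.37 ± 0.047 when SB431542 was added to TGF-b1. Ccl8 stood at 14.4, 15.2 and 13.6 CPM with TGF-b1 and SB431542, at 2.47, 2.48 and 1.69 CPM with TGF-b1 and at 6.24, 6.23 and 6.85 CPM in CD mock. Ccl12, a mouse gene close to Ccl2, stood at 4.04, 3.46 and 3.61 CPM with TGF-b1 and SB431542, at 0, 0.266 and 0.876 CPM with TGF-b1 and at 1.32, 1.56 and 1.8 CPM in mock. Its change with TGF-b1 was -1.86 ± 0.45 log2, or -3.48 without TGF-b1 replicate 3, and its change with SB431542 against TGF-b1 alone was 3.11 ± 0.42, or 4.72 without that library.

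Ccl11, also called eotaxin, stood at 15.1, 14.1 and 15.2 CPM with TGF-b1 and SB431542, at 2.73, 3.28 and 2.76 CPM with TGF-b1 and at 9.84, 10.8 and 14.7 CPM in CD mock. The TGF-b1 libraries lay lowest, with a change of -2.01 ± 0.17 log2 against mock (adjusted p = 4.89e-15) and of 2.34 ± 0.16 in the comparison of SB431542 with TGF-b1 alone. SB431542 and mock libraries overlapped, and the change between them of 0.33 ± 0.10 (adjusted p = 0.00756) was no longer called without CD mock replicate 1 (0.23) or replicate 2 (0.26).

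A second group of CC ligands on chromosome 11, between 83525779 and 83664684, holds Ccl5, Ccl9, Ccl6, Ccl3 and Ccl4, inflammatory ligands that myeloid cells are known to make. Ccl6 stood at 228, 225 and 228 CPM with TGF-b1 and SB431542, at 18.4, 13.7 and 17.3 CPM with TGF-b1 and at 79.97, 84.1 and 81.8 CPM in CD mock. Ccl9 stood at 129, 128 and 126 CPM with TGF-b1 and SB431542, at 6.4, 6.3 and 7.35 CPM with TGF-b1 and at 50.4, 49.5 and 46.8 CPM in CD mock. These were the largest falls with TGF-b1 among members above 40 CPM in mock, -2.31 ± 0.065 log2 for Ccl6 (adjusted p = 4.10e-33) and -2.86 ± 0.093 for Ccl9 (adjusted p = 7.46e-33). SB431542 changed them against TGF-b1 alone by 3.77 ± 0.061 and 4.24 ± 0.090, and against mock by 1.47 ± 0.033 and 1.39 ± 0.039. Ccl3 stood at 13.1, 12.5 and 14.1 CPM with TGF-b1 and SB431542, at 1.19, 1.42 and 1.01 CPM with TGF-b1 and at 4.04, 4.53 and 3.34 CPM in mock. Ccl4 stood at 6.13, 7.58 and 6.61 CPM with TGF-b1 and SB431542, at 0.938, 0.443 and 0.539 CPM with TGF-b1 and at 1.67, 1.84 and 1.37 CPM in mock. Groups did not overlap for either gene, and SB431542 exceeded mock by 1.72 ± 0.14 log2 for Ccl3 and 2.04 ± 0.21 for Ccl4. Ccl5 was too low to be tested, with 26 counts with TGF-b1 and SB431542, 2 with TGF-b1 and 12 in mock. With TGF-b1 against mock, 4 of 14 macrophage markers rose and 5 fell, near the shares of all genes (33.4% and 34.2%), and 5 were not called. Their median change was -0.057 log2, and their summed level was 675 to 692 CPM with TGF-b1 and 610 to 629 CPM in mock. With SB431542, 13 of 14 of these markers were higher than with TGF-b1 alone (41.4% of all genes) and 14 of 14 higher than in mock (30.6%). Their part in the higher Ccl3, Ccl4, Ccl6 and Ccl9 was not tested.

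Ccl17, a Ccr4 ligand of the T helper 2 axis, ran opposite to these. It stood at 0 in the 3 libraries with TGF-b1 and SB431542, at 2.13, 2.22 and 1.82 CPM with TGF-b1 and at 0.176, 0.142 and 0.171 CPM in mock. It was 12-fold higher with TGF-b1 than in mock (3.58 ± 0.66 log2), and with SB431542 it was at least 27.5-fold lower than with TGF-b1 alone. Since Ccl17 passed the low-count filter through the TGF-b1 group alone, this difference was built into its being tested.

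Among the homeostatic ligands, Cxcl12 and Cxcl14 changed in opposite directions. Cxcl12 stood at 1176, 1192 and 1169 CPM with TGF-b1 and SB431542, at 668, 694 and 688 CPM with TGF-b1 and at 1254, 1279 and 1277 CPM in CD mock. TGF-b1 libraries lay lowest, with -0.89 ± 0.013 log2 against mock, and SB431542 brought a change of 0.79 ± 0.013 against TGF-b1 alone. The remaining difference from mock, -0.11 ± 0.012 log2, depended on the scaling and was 0.0019 with total counts. Cxcl14, an orphan ligand abundant in fibroblasts and fat, stood at 8.51, 10.6 and 8.91 CPM with TGF-b1 and SB431542, at 89.8, 81.9 and 84.5 CPM with TGF-b1 and at 40.1, 40.7 and 39.7 CPM in mock. It changed by 1.09 ± 0.048 log2 with TGF-b1 against mock, by -3.19 ± 0.081 with SB431542 against TGF-b1 alone and by -2.10 ± 0.086 with both agents against mock. Cxcl13, the B cell attractant, stood at 2.96, 2.72 and 3.38 CPM with TGF-b1 and SB431542, at 0 in the 3 TGF-b1 libraries and at 0.264, 0.0708 and 0.60 CPM in mock. It was at least 38.0-fold higher with SB431542 than with TGF-b1 alone, and 3.31 ± 0.51 log2 above mock (4.18 without CD mock replicate 3). Since Cxcl13 passed the low-count filter through the group with SB431542 alone, these differences were built into its being tested. Ccl25, at 2.24, 2.65 and 2.38 CPM with TGF-b1 and SB431542, 3.07, 1.77 and 2.29 CPM with TGF-b1 and 2.2, 3.04 and 2.31 CPM in mock, and Ccl28, with group means under 1 CPM, were not called in any of the 3 comparisons.

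Ccl27a and Ccl21b lie in a stretch of chromosome 4 where near-identical gene copies occur, so their counts are uncertain. Ccl27a stood at 5.26, 5.44 and 4.38 CPM with TGF-b1 and SB431542, at 3.33, 3.28 and 3.1 CPM with TGF-b1 and at 5.8, 3.75 and 4.03 CPM in mock. Its change of -0.47 ± 0.18 log2 with TGF-b1 was no longer called with DESeq2 (-0.47), without TGF-b1 replicate 3 (-0.43) or without CD mock replicate 1 (-0.26), while the change of 0.64 ± 0.18 with SB431542 against TGF-b1 alone was called with DESeq2 and without TGF-b1 replicate 3 too. Ccl21b stood at 1.23, 1.32 and 0.999 CPM with TGF-b1 and SB431542, at 0.171, 0.177 and 0 CPM with TGF-b1 and at 0.352, 0.566 and 0.771 CPM in mock, or 48, 4 and 21 counts summed over the libraries of these groups. Its change of -2.31 ± 0.89 log2 with TGF-b1 became -1.64 without TGF-b1 replicate 3, and its change of 3.37 ± 0.85 with SB431542 against TGF-b1 alone became 2.70. Against mock, the 1.06 ± 0.44 with SB431542 was lost with DESeq2 (1.06), and without SB431542 replicate 1 (1.03) or 2 (0.97) or CD mock replicate 1 (0.83) or 2 (1.06). Ccl21b passed the low-count filter through the group with SB431542 alone, so its rises with SB431542 were built into its being tested.

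Cxcl16 and Cx3cl1 are ligands made as membrane proteins. Cxcl16, the ligand of Cxcr6, stood at 61.4, 52.3 and 58.2 CPM with TGF-b1 and SB431542, at 36.1, 35.3 and 33.4 CPM with TGF-b1 and at 68.1, 74 and 73 CPM in CD mock. The groups did not overlap, with -1.05 ± 0.055 log2 for TGF-b1 against mock, 0.72 ± 0.056 for SB431542 against TGF-b1 alone and -0.33 ± 0.047 for both agents against mock. Cx3cl1, or fractalkine, the ligand of Cx3cr1, stood at 25.6, 22.4 and 26.7 CPM with TGF-b1 and SB431542, at 32, 32.4 and 26.8 CPM with TGF-b1 and at 29, 27 and 24.8 CPM in mock. Its 0.16 ± 0.072 log2 with TGF-b1 (adjusted p = 0.0455) was lost with DESeq2 (0.18), with total counts (0.014), with only the 2 groups in the fit (0.15), and without TGF-b1 replicate 1 (0.12) or 2 (0.12) or CD mock replicate 2 (0.16) or 3 (0.11). Its -0.28 ± 0.072 with SB431542 against TGF-b1 alone was lost with total counts (-0.018).

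**Figure D3:**
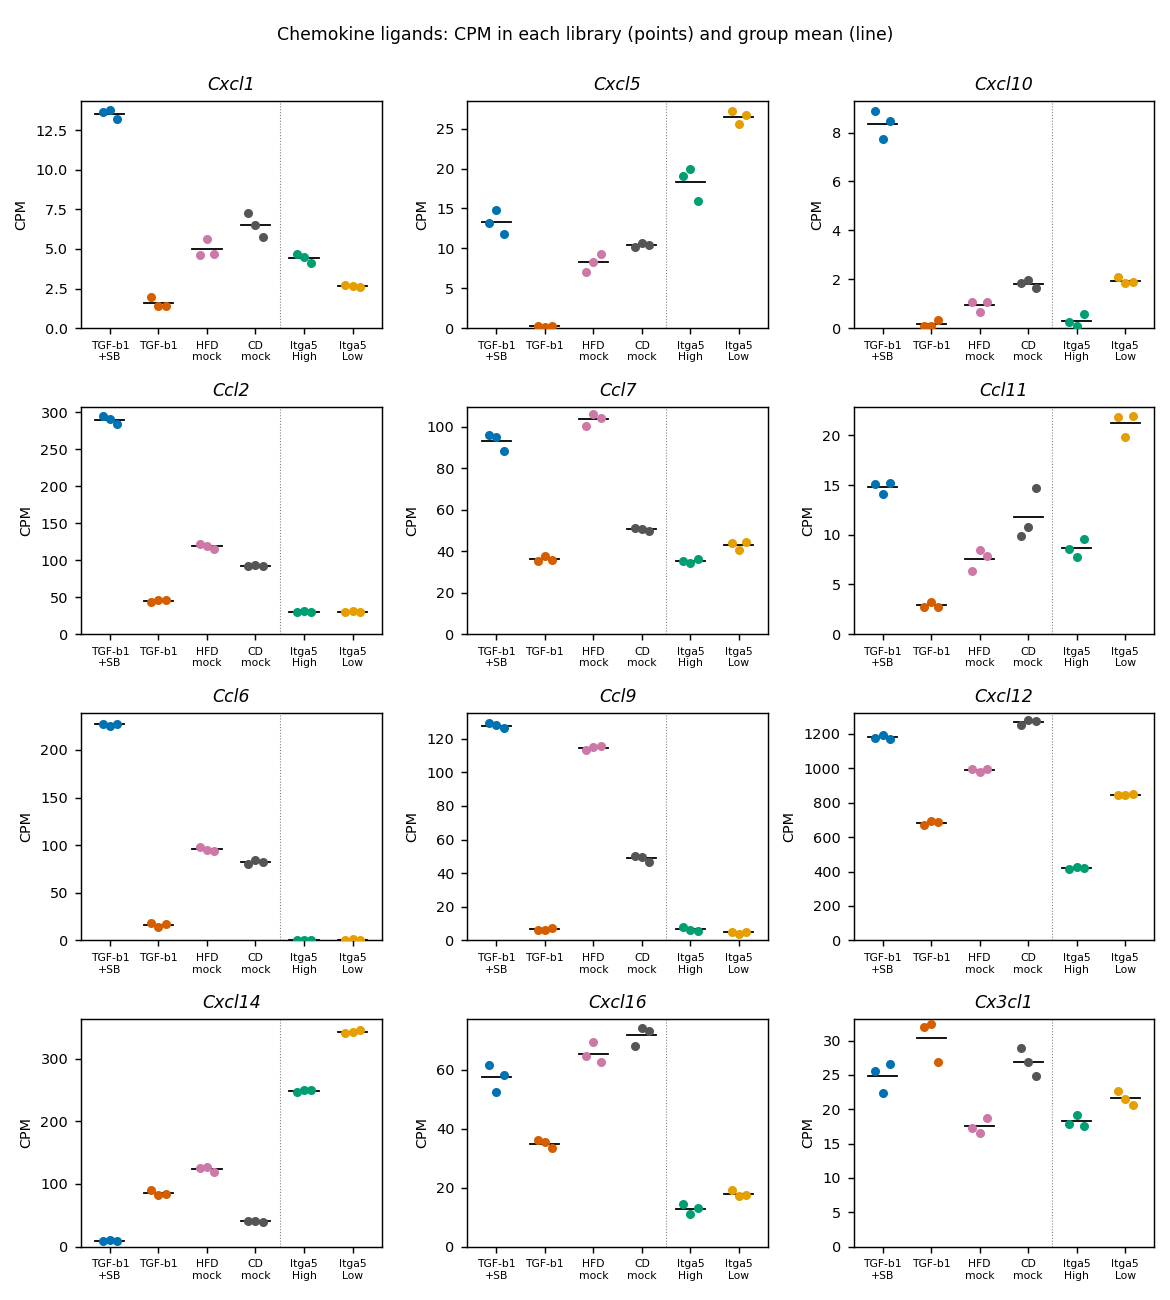
CPM of 12 chemokine ligands in each library (points) with the group mean (line); the dotted line separates the undifferentiated groups from the sorted and differentiated ones. Ccl2 lies at 284 to 294 CPM with TGF-b1 and SB431542 and at 43.7 to 46.2 CPM with TGF-b1, while Cxcl14 lies at 8.51 to 10.6 CPM with TGF-b1 and SB431542 and at 81.9 to 89.8 CPM with TGF-b1.

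Signalling receptors were scarce, and 7 of the 12 did not pass the low-count filter in undifferentiated cells. Cxcr4, the Cxcl12 receptor, stood at 22.1, 24.2 and 24.2 CPM with TGF-b1 and SB431542, at 10.7, 9.49 and 8.5 CPM with TGF-b1 and at 15.9, 14.7 and 15.2 CPM in mock. It moved in the direction of its ligand, with -0.68 ± 0.098 log2 for TGF-b1 against mock and 1.31 ± 0.090 for SB431542 against TGF-b1 alone, and unlike Cxcl12 it exceeded mock with SB431542 (0.62 ± 0.079). Cxcr6, the Cxcl16 receptor, stood at 0.505, 0.221 and 0.0768 CPM with TGF-b1 and SB431542, at 5.8, 5.14 and 6.07 CPM with TGF-b1 and at 0.0879, 0.283 and 0 CPM in mock. Over 3 libraries each, Cxcr6 had 11 counts with TGF-b1 and SB431542, 216 with TGF-b1 and 5 in mock, with no overlap between the TGF-b1 libraries and the others. The change was 5.31 ± 0.70 log2 with TGF-b1 against mock, or 6.75 without CD mock replicate 2. With SB431542 against TGF-b1 alone it was -4.34 ± 0.48, or -5.16 without SB431542 replicate 1. Since Cxcr6 passed the low-count filter through the TGF-b1 group alone, these differences were built into its being tested. Cx3cr1, the fractalkine receptor of monocytes and macrophages, stood at 0.361, 0.147 and 0.154 CPM with TGF-b1 and SB431542, at 3.24, 3.28 and 3.37 CPM with TGF-b1 and at 0.703, 0.637 and 0.685 CPM in mock. The 3 groups did not overlap, with 2.28 ± 0.31 log2 for TGF-b1 against mock (adjusted p = 6.51e-10), -3.84 ± 0.48 for SB431542 against TGF-b1 alone and -1.56 ± 0.54 for both agents against mock.

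Ccr1, a receptor of Ccl3 and its relatives, was highest with SB431542 among these 3 groups, unlike Cx3cr1. It stood at 5.99, 6.77 and 5.61 CPM with TGF-b1 and SB431542, at 2.98, 3.28 and 2.97 CPM with TGF-b1 and at 3.95, 3.61 and 3.77 CPM in mock. Its -0.30 ± 0.18 log2 with TGF-b1 against mock was not called (adjusted p = 0.15) except with total counts (-0.44), whereas SB431542 exceeded TGF-b1 alone by 0.996 ± 0.16 and mock by 0.70 ± 0.15.

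Among the atypical receptors, Ackr4 and Ackr3 rose and Ackr1 and Ccrl2 fell with TGF-b1 against mock. Ackr4, which clears Ccl19, Ccl21 and Ccl25, stood at 1.01, 0.956 and 0.845 CPM with TGF-b1 and SB431542, at 9.98, 9.58 and 11.6 CPM with TGF-b1 and at 6.42, 8.28 and 8.22 CPM in CD mock. It was 11.1-fold lower with SB431542 than with TGF-b1 alone (-3.47 ± 0.24 log2, adjusted p = 9.09e-21), also 8.11-fold lower than in mock, and 0.45 ± 0.12 log2 higher with TGF-b1 than in mock. Ackr3, a scavenger of Cxcl12, stood at 23.7, 25.1 and 27 CPM with TGF-b1 and SB431542, at 31.2, 30.9 and 30.2 CPM with TGF-b1 and at 21.3, 21.4 and 20.5 CPM in mock. It changed by 0.54 ± 0.068 log2 with TGF-b1 against mock, and the -0.29 ± 0.064 with SB431542 against TGF-b1 alone was lost with total counts (-0.028). Ccrl2 binds the chemoattractant chemerin and carries a kB match in its promoter window at chr9:111057469-111057768 but not in its other windows. It stood at 6.13, 5.74 and 5.46 CPM with TGF-b1 and SB431542, at 0.938, 0.887 and 0.539 CPM with TGF-b1 and at 1.67, 2.83 and 2.4 CPM in mock. Its changes were -1.59 ± 0.32 log2 with TGF-b1 against mock, 2.90 ± 0.29 with SB431542 against TGF-b1 alone and 1.30 ± 0.19 with both agents against mock. Ackr1, a chemokine-binding protein of venule endothelium, stood at 1.37, 1.18 and 1.15 CPM with TGF-b1 and SB431542, at 0.512, 0.177 and 0.202 CPM with TGF-b1 and at 0.967, 0.849 and 0.771 CPM in mock. Of the 9 endothelial markers, 2 rose and 7 fell with TGF-b1 against mock, and 7 rose and 2 fell with SB431542 against TGF-b1 alone. They summed to 818 to 843 CPM with TGF-b1 and SB431542, 246 to 249 CPM with TGF-b1 and 439 to 460 CPM in mock, and their part in the -1.53 ± 0.54 log2 of Ackr1 with TGF-b1 against mock was not tested.

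**Figure D4:**
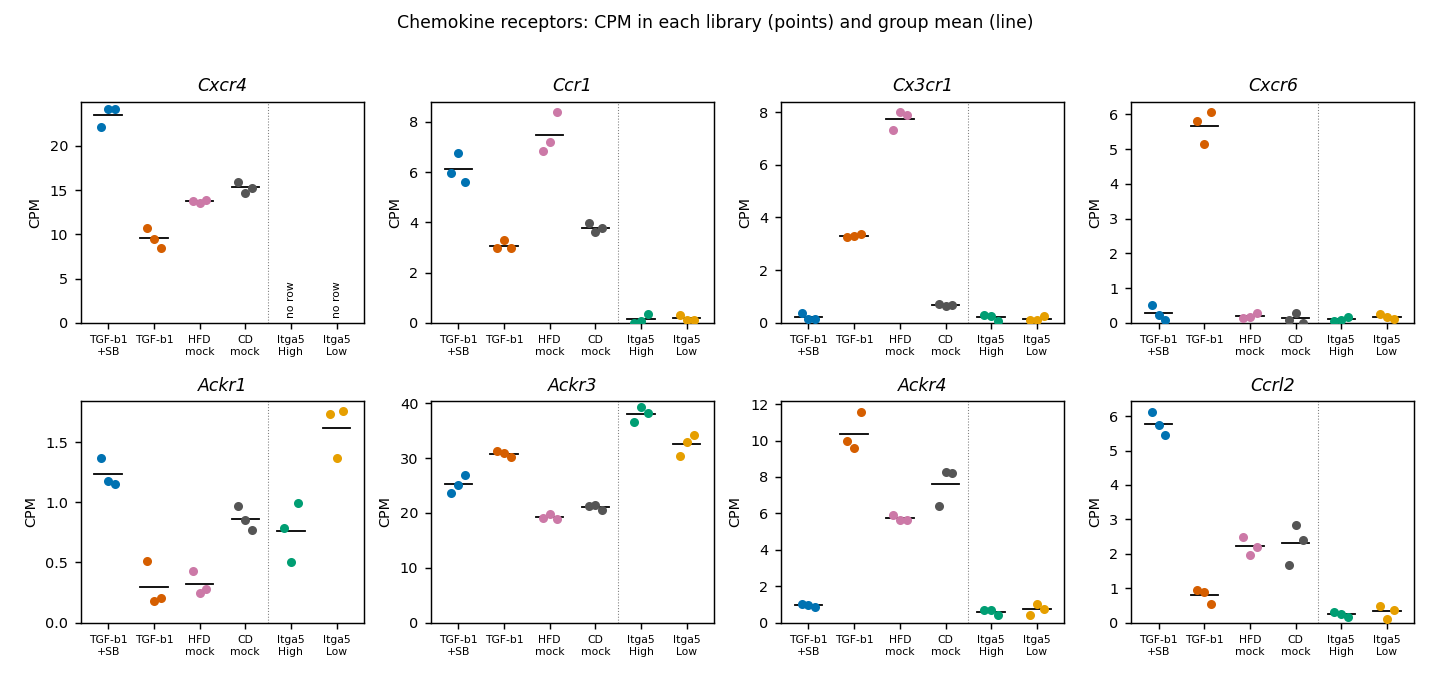
CPM of 8 chemokine receptors in each library (points) with the group mean (line); "no row" marks a gene with no entry in the table of differentiated cells. Cxcr6 reaches 5.14 to 6.07 CPM with TGF-b1 and stays at or below 0.505 CPM in the other groups, while Cx3cr1 is highest in HFD mock.

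The Cxcl12 gene on chromosome 6, from 117168535 to 117181369, had 3 transcripts in the table, of 1878, 3173 and 5670 bases. How reads were divided between them is not stated, so their levels are estimates and were not tested. The 1878-base transcript made up most of Cxcl12 per length in every group, at 91.9% to 92.5% with TGF-b1 and SB431542, 86.7% to 87.3% with TGF-b1 and 91.4% to 91.7% in mock. The 3173-base transcript stood at 42.9 to 49.7 CPM with TGF-b1 and SB431542, at 95.9 to 99.8 CPM with TGF-b1 and at 90.3 to 98.6 CPM in mock. It thus differed from the gene as a whole, being lowest with SB431542, whereas the 5670-base transcript stood at 166 to 167 CPM with TGF-b1 and SB431542, at 58.0 to 61.6 CPM with TGF-b1 and at 119 to 127 CPM in mock.

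**Figure D5:**
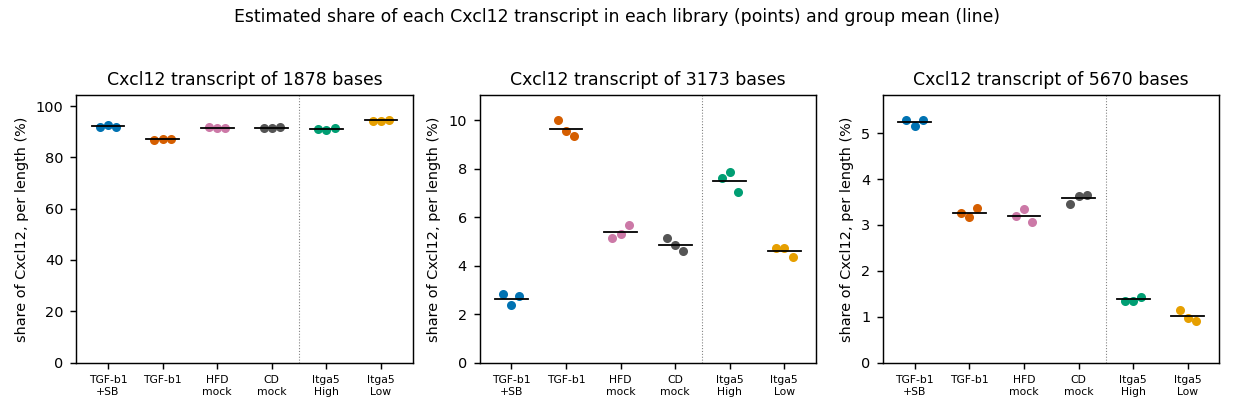
Estimated share of each of the 3 Cxcl12 transcripts, per transcript length, in each library (points) with the group mean (line); each panel has its own scale from 0. The share of the 3173-base transcript is 2.39% to 2.82% with TGF-b1 and SB431542 and 9.34% to 10.03% with TGF-b1.

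Genes of the wider pathway, on lists of genes outside the chemokine family, were counted in the same fits. Of all genes tested, 33.4% were called higher and 34.2% lower with TGF-b1 against mock, and 41.4% and 38.3% with SB431542 against TGF-b1 alone. Of 20 interferon signalling genes, 1 rose and 18 fell with TGF-b1 against mock (median -0.60 log2), and 20 of 20 were higher with SB431542 than with TGF-b1 alone (median 1.52), 17 also higher than in mock with 1 lower (30.6% and 30.4% of all genes). Jak1, a kinase bound to interferon receptors, averaged 539 CPM with TGF-b1 and SB431542, 271 CPM with TGF-b1 and 443 CPM in mock. Of 21 nuclear factor kB genes, 4 rose and 13 fell with TGF-b1 against mock (median -0.30), and 15 rose and 3 fell with SB431542 against TGF-b1 alone (median 0.84). Vcam1, an adhesion molecule, averaged 218 CPM with TGF-b1 and SB431542, 86.5 CPM with TGF-b1 and 379 CPM in mock, while Csf1, the macrophage growth factor, averaged 1560.4, 3215 and 1993 CPM in the same groups. Of 24 genes for chemokine signalling and clearance, such as G-protein subunits and proteases, 7 rose and 13 fell with TGF-b1 (median -0.26), and 15 rose and 8 fell with SB431542 against TGF-b1 alone (median 0.52). Mmp2, a protease that cleaves chemokines, averaged 426 CPM with TGF-b1 and SB431542, 550.0 CPM with TGF-b1 and 377 CPM in mock. Of 16 other chemoattractant genes, 13 were tested. With TGF-b1, 5 were higher and 7 lower (median -0.26), of which only the 5 lay near the share of all genes (33.4%). With SB431542 against TGF-b1 alone, 8 were higher and 5 lower (median 1.13). Complement C3, the source of the attractant C3a, averaged 1702 CPM with TGF-b1 and SB431542, 50.02 CPM with TGF-b1 and 694 CPM in mock.

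The second question was how chemokine genes of HFD preadipocytes differed from those of CD preadipocytes. The fractalkine receptor Cx3cr1 was 11.4-fold higher in HFD mock, and the ligands Ccl12, Ccl4, Cxcl14, Ccl9, Ccl3 and Ccl7 were 2.05-fold to 4.99-fold higher. Cxcl12 and Ccl11 were lower, by 1.28-fold and 1.56-fold. Of 33 members tested, 23 were called (53.7% of all genes were), 12 of them higher (27.1%) and 11 lower (26.6%). The change reached 1 log2 unit in 11 (11.7% of all genes), upward in 9 (4.37%) and downward in 2 (7.37%). The libraries did not overlap in 25 (58% of all genes), and the median was 0.085 log2 over the members tested and -0.0077 over all genes.

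Cx3cr1 stood at 7.33, 8.01 and 7.9 CPM in HFD mock, against 0.703, 0.637 and 0.685 CPM in CD mock. Ccr1 stood at 6.83, 7.19 and 8.39 CPM in HFD mock, against 3.95, 3.61 and 3.77 CPM in CD mock. Both receptors were higher in every HFD library than in any CD library, with changes of 3.51 ± 0.29 log2 for Cx3cr1 (adjusted p = 6.33e-18) and 0.99 ± 0.15 for Ccr1 (adjusted p = 2.19e-07). Cxcr4, at 13.8, 13.6 and 13.9 CPM in HFD mock and 15.9, 14.7 and 15.2 CPM in CD mock, was called only with total counts (-0.23), where Ackr3 was too (-0.22). Cxcr6 was low in both groups, at 8 counts in HFD mock and 5 in CD mock.

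Ccl12 stood at 7.47, 7.44 and 8.53 CPM in HFD mock, against 1.32, 1.56 and 1.8 CPM in CD mock. Ccl4 stood at 6.83, 7.27 and 6.56 CPM in HFD mock, against 1.67, 1.84 and 1.37 CPM in CD mock. Ccl3 stood at 7.97, 9.48 and 8.39 CPM in HFD mock, against 4.04, 4.53 and 3.34 CPM in CD mock. None of these groups overlapped, and the changes were 2.32 ± 0.23 log2, 2.06 ± 0.21 and 1.097 ± 0.14. Ccl9 stood at 113, 115 and 116 CPM in HFD mock, against 50.4, 49.5 and 46.8 CPM in CD mock (1.23 ± 0.040 log2). Ccl6, its neighbour, stood at 98, 94.9 and 94.3 CPM in HFD mock, against 79.97, 84.1 and 81.8 CPM in CD mock, and differed by only 0.22 ± 0.037 log2. Within the other cluster on chromosome 11, Ccl7 stood at 100.4, 106 and 104 CPM in HFD mock, against 51.1, 50.7 and 49.7 CPM in CD mock (1.03 ± 0.042 log2). Its neighbours did not share that size: Ccl2, at 123, 119.9 and 115 CPM in HFD mock and 92.1, 93 and 92 CPM in CD mock, changed by 0.37 ± 0.033 log2, Ccl8, at 7.82, 7.68 and 7.26 CPM in HFD mock and 6.24, 6.23 and 6.85 CPM in CD mock, by 0.24 ± 0.12 (adjusted p = 0.111, not called), and Ccl11, at 6.4, 8.5 and 7.83 CPM in HFD mock and 9.84, 10.8 and 14.7 CPM in CD mock, by -0.64 ± 0.12.

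In HFD mock, 14 of 14 macrophage markers were higher by at least 1 log2 unit (4.37% of all genes), with a median of 2.53 log2. Their sums were 2926 to 2959 CPM in HFD mock and 610 to 629 CPM in CD mock. C1qb, a complement component of tissue macrophages, averaged 203 CPM in HFD mock and 24.2 CPM in CD mock, and Lyz2 averaged 1163 and 307 CPM in the same groups. The change of Cx3cr1 was above the marker median, and those of Ccl12, Ccl4, Ccl9, Ccl3, Ccr1, Ccl7 and Ccl6 were below it. The part of macrophage RNA in the chemokine changes was not tested. Of 7 neutrophil and 8 lymphocyte markers none passed the low-count filter, and their sums were at most 1.20 and 0.0711 CPM in HFD mock and 0.920 and 0 CPM in CD mock. Endothelial markers were lower in 8 of 9 and mesothelial markers in 10 of 10, with mesothelial sums of 671 to 681 CPM in HFD mock and 2594 to 2624 CPM in CD mock.

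Cxcl14 stood at 125, 127 and 119 CPM in HFD mock, against 40.1, 40.7 and 39.7 CPM in CD mock. It was 3.08-fold higher (1.62 ± 0.045 log2). Cxcl12 stood at 996, 979 and 994 CPM in HFD mock, against 1254, 1279 and 1277 CPM in CD mock, a change of -0.36 ± 0.012 log2 with no overlap. Cx3cl1 stood at 17.3, 16.5 and 18.8 CPM in HFD mock, against 29, 27 and 24.8 CPM in CD mock (-0.62 ± 0.080 log2, adjusted p = 9.63e-09), so the ligand fell where its receptor Cx3cr1 rose. Cxcl10 stood at 1.07, 0.654 and 1.06 CPM in HFD mock, against 1.85, 1.98 and 1.63 CPM in CD mock (-0.95 ± 0.30 log2, adjusted p = 0.00556). Cxcl2 stood at 0.782, 0.654 and 0.705 CPM in HFD mock, against 0.176, 0.142 and 0.171 CPM in CD mock. It rose by 2.09 ± 0.68 log2 on 29 counts in HFD mock and 6 in CD mock, while its neighbours Cxcl1 and Cxcl5 were lower. Cxcl1 stood at 4.62, 5.64 and 4.65 CPM in HFD mock, against 7.29, 6.51 and 5.74 CPM in CD mock, and its -0.40 ± 0.14 log2 was lost without CD mock replicate 1 (-0.32), HFD mock replicate 1 (-0.35) or replicate 3 (-0.35). Cxcl5 stood at 7.04, 8.33 and 9.31 CPM in HFD mock, against 10.2, 10.7 and 10.5 CPM in CD mock, and its -0.35 ± 0.11 was lost without HFD mock replicate 1 (-0.24). Cxcl16 stood at 64.7, 69.2 and 62.5 CPM in HFD mock, against 68.1, 74 and 73 CPM in CD mock. These libraries overlapped, and the -0.14 ± 0.046 log2 was lost without CD mock replicate 2 (-0.11) or HFD mock replicate 3 (-0.11).

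Among atypical receptors and the remaining ligands, Ackr1 stood at 0.427, 0.245 and 0.282 CPM in HFD mock, against 0.967, 0.849 and 0.771 CPM in CD mock. It changed by -1.40 ± 0.51 log2 on 13 counts in HFD mock and 32 in CD mock. Ackr4 stood at 5.9, 5.64 and 5.64 CPM in HFD mock, against 6.42, 8.28 and 8.22 CPM in CD mock, and its -0.42 ± 0.13 log2 was lost without CD mock replicate 2 (-0.35). Ccl27a stood at 2.28, 2.61 and 3.03 CPM in HFD mock, against 5.8, 3.75 and 4.03 CPM in CD mock (-0.76 ± 0.19 log2). Ccl21b stood at 0.285, 0 and 0.141 CPM in HFD mock, against 0.352, 0.566 and 0.771 CPM in CD mock. It changed by -1.86 ± 0.76 log2 on 6 counts in HFD mock and 21 in CD mock, a change of -2.75 without HFD mock replicate 1 that was lost without HFD mock replicate 2 (-1.37) or CD mock replicate 3 (-1.61). Ccrl2 and Cxcl9 were not called, and Cxcl13 (-1.87 ± 1.0) was called only without CD mock replicate 2 (-2.40) or HFD mock replicate 1 (-2.69). On the wider lists, beside 27.1% of all genes called higher and 26.6% lower, 15 of 24 genes for chemokine signalling and clearance rose and 4 fell (median 0.26 log2), 5 of 21 nuclear factor kB genes rose and 10 fell (median -0.094), and 5 of 20 interferon signalling genes rose and 10 fell (median -0.14). Of the 13 other chemoattractants tested, 8 rose and 4 fell (median 0.31), with C3 at 217 CPM in HFD mock and 694 CPM in CD mock. The comparison shares its CD mock libraries with the comparisons of TGF-b1 with mock.

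The third question was whether cells sorted for high or low integrin alpha 5 differed in chemokine genes after differentiation. Itga5-High cells had a 2.01-fold lower level of Cxcl12, and were also lower in Ccl11, Cxcl10 and Ackr1 by at least 1 log2 unit. They were modestly higher in Cxcl1, Ccl9 and Ackr3. Because Cxcl10 and Ackr1 passed the low-count filter through Itga5-Low alone, their direction was built into their being tested. Both are included in the counts that follow. Of 21 members tested, 13 were called (53.5% of all genes were), 3 of them higher (27%) and 10 lower (26.5%). The change reached 1 log2 unit in 4 (4.12% of all genes), upward in 0 (2.03%) and downward in 4 (2.09%), and 13 did not overlap (58.2%). The median was -0.31 log2 over the members tested and -0.0033 over all genes.

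Cxcl12 stood at 418, 425 and 419 CPM in Itga5-High, against 843, 845 and 849 CPM in Itga5-Low (-1.01 ± 0.014 log2). Its share of all chemokine and receptor counts was 46.6% to 47.2% in the Itga5-High libraries, against 57.7% to 58.1% in the Itga5-Low ones. Of the transcripts, the main one of 1878 bases stood at 352 to 357 CPM in the Itga5-High libraries, against 752 to 767 CPM in the Itga5-Low ones. The 5670-base one stood at 15.7 to 16.8 CPM in the Itga5-High libraries, against 22.4 to 27.6 CPM in the Itga5-Low ones. For the 3173-base one the values were 46.4 to 52.2 CPM in the Itga5-High libraries, against 59.9 to 64.0 CPM in the Itga5-Low ones. Its scavenger Ackr3 stood at 36.5, 39.3 and 38.2 CPM in Itga5-High, against 30.5, 32.9 and 34.2 CPM in Itga5-Low, and changed by 0.22 ± 0.056 log2 (adjusted p = 0.000725). Cxcr4 had no entry in this table.

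Cxcl14 stood at 247, 249 and 250.5 CPM in Itga5-High, against 341, 342 and 346 CPM in Itga5-Low (-0.46 ± 0.019 log2). Ccl11 stood at 8.56, 7.75 and 9.6 CPM in Itga5-High, against 21.9, 19.8 and 21.9 CPM in Itga5-Low (-1.29 ± 0.093 log2, adjusted p = 3.40e-14). The libraries did not overlap for either. Ccl8 stood at 40.1, 35.5 and 39.5 CPM in Itga5-High, against 48.2, 51.5 and 50.3 CPM in Itga5-Low (-0.38 ± 0.051 log2). Ccl7 stood at 35.1, 34.1 and 36 CPM in Itga5-High, against 43.8, 40.5 and 44.4 CPM in Itga5-Low (-0.29 ± 0.053 log2). Ccl2, the neighbour of these 3 genes, was not called: it stood at 29.7, 31.9 and 30.5 CPM in Itga5-High, against 30.2, 31.9 and 29.8 CPM in Itga5-Low, and its fitted difference was -0.002 ± 0.059 log2 (adjusted p = 0.98).

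Cxcl10, which passed the low-count filter through Itga5-Low alone, stood at 0.243, 0.0842 and 0.579 CPM in Itga5-High, against 2.1, 1.82 and 1.88 CPM in Itga5-Low. Its change was -2.67 ± 0.48 log2, or -3.40 without Itga5-High replicate 3. Cxcl9 stood at 2.25, 1.09 and 1.41 CPM in Itga5-High, against 1.67, 1.71 and 2.55 CPM in Itga5-Low, and was not called (-0.26 ± 0.26, adjusted p = 0.438). The interferon-responsive pair thus gave 1 call. Cxcl5 stood at 19.1, 19.96 and 15.9 CPM in Itga5-High, against 27.2, 25.6 and 26.7 CPM in Itga5-Low (-0.53 ± 0.073 log2, adjusted p = 1.29e-07). Cxcl1 stood at 4.67, 4.46 and 4.14 CPM in Itga5-High, against 2.72, 2.68 and 2.61 CPM in Itga5-Low (0.73 ± 0.17 log2, adjusted p = 0.000593). The neighbouring ELR ligands Cxcl1 and Cxcl5 thus changed in opposite directions, both without overlap between libraries. Ccl9 stood at 7.71, 6.4 and 5.63 CPM in Itga5-High, against 5.08, 4.05 and 5.04 CPM in Itga5-Low, and its 0.50 ± 0.14 log2 was lost without Itga5-High replicate 1 (0.35). Cxcl16 stood at 14.4, 11.1 and 12.9 CPM in Itga5-High, against 19.2, 17 and 17.4 CPM in Itga5-Low (-0.46 ± 0.087 log2). Cx3cl1 stood at 17.9, 19.2 and 17.6 CPM in Itga5-High, against 22.7, 21.5 and 20.6 CPM in Itga5-Low (-0.25 ± 0.072 log2). Ackr1, which also passed the filter through Itga5-Low alone, stood at 0.789, 0.505 and 0.993 CPM in Itga5-High, against 1.73, 1.37 and 1.76 CPM in Itga5-Low. It was lower in all Itga5-High libraries (-1.07 ± 0.33 log2). Ackr4, Ccl21b, Ccl25, Ccl27a, Ccr10 and Cxcl13 were not called.

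Macrophage markers were scarce in the differentiated cells, at 45.2 to 46.1 CPM in the Itga5-High libraries, against 23.01 to 23.9 CPM in the Itga5-Low ones, and of the 5 tested 3 were higher in Itga5-High. Csf1r, the receptor of Csf1, averaged 29.5 CPM in Itga5-High and 9.54 CPM in Itga5-Low, and C1qb averaged 0.422 CPM in Itga5-High and 0.439 CPM in Itga5-Low. Adipocyte markers were lower in 4 of 6 with 2 not called, with sums of 6743 to 6767 CPM in the Itga5-High libraries, against 7392 to 7433 CPM in the Itga5-Low ones, and their part in the chemokine differences was not tested. The counts on the wider lists lay mostly near the 27% of all genes called higher and 26.5% called lower: 6 of 20 tested nuclear factor kB genes rose and 2 fell (median 0.056 log2), 5 of 19 interferon signalling genes rose and 5 fell (median 0.018), and 6 of 20 genes for chemokine signalling and clearance rose and 6 fell (median -0.062). Of 9 other chemoattractants tested, 5 rose and 2 fell (median 0.15), among them Rarres2, which encodes chemerin and averaged 639 CPM in Itga5-High and 179 CPM in Itga5-Low.

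The other 17 members, Ackr2, Ccl5, Ccl19 and its 2 pseudogene symbols, Ccl20, Ccl24, Ccl25, Ccl28, Ccr2, Ccr3, Ccr7, Ccr10, Cxcl3, Cxcr2, Cxcr3 and Cxcr5, stayed low, and apart from Ccl25 no group mean of theirs reached 1 CPM. Ccl19, Ccl19-ps1 and Ccl19-ps2 are near-identical copies, so their counts are uncertain. Among the untested ones, 3 are given for their size, chosen after their values were seen. Ccr2, the Ccl2 receptor, had 29 counts with TGF-b1 and SB431542 against 2 with TGF-b1, a ratio of 13.6 with a 95% counting interval of 3.43 to 117. Cxcr3, the receptor of Cxcl9 and Cxcl10, had 15 counts with TGF-b1 and SB431542 and 0 with TGF-b1, at least 4.67-fold higher against a floor of 3 counts over the group. Ccr3, the eotaxin receptor, had 30 counts in HFD mock and 1 in CD mock, a ratio of 27.6 with an interval of 4.58 to 1124. Intervals and floors cover counting error only.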

How the data were processed

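Poly(A) RNA of 18 libraries was sequenced. The authors deposited expected counts (estimated counts per RefSeq transcript, not normalised) in 2 tables, made with fastp, STAR and featureCounts on mm10 per the submitters' processing notes, with versions not given in the sources used here. How reads shared by transcripts were divided is not stated. Here the deposited expected counts were summed per gene symbol and rounded. edgeR 4.0.16 in R 4.3.3 scaled them (TMM), removed low genes (filterByExpr) and tested 14078 genes in undifferentiated and 13468 in differentiated cells by quasi-likelihood. Each table was fitted apart with 1 coefficient per group. Genes were called at a Benjamini-Hochberg adjusted p under 0.05 over all genes tested. SEs are Wald errors with dispersion kept at 1e-04 or above. The scripts were tested on simulated data. Alternatives were other scalings, no filter, DESeq2 1.42.0, 2 groups only, a replicate block, a dispersion floor and leaving out each library. Members with a group mean of at least 5 CPM, or called by at least 1 log2 unit with at least 1 CPM, are named, and values by library are given where the text turns on them. Members and lists were chosen with earlier results of these data known. Counts cover all members, of which 1 is not reported here by name or value.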

Additional observations from a re-analysis of the deposited data

How the results depend on the processing

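Counts of members and of all genes called stayed within 1.5 times the reported count under every alternative that was run. Over the single-gene values, 1776 kept direction and side of the threshold, 30 lost the call, 7 gained it and 13 changed sign. Those that changed sign were mostly near 0 or at low counts, and the cause was not tested. In Itga5-High against Itga5-Low, Ccl2 was 0.000205 with DESeq2, 0.00257 with the replicate block and -0.0280 to 0.0295 with each library left out in turn, Ackr4 was -0.566 to 0.0252 and Ccl27a -0.0804 to 0.0289 over the same left-out libraries. In HFD mock against CD mock, leaving out each library in turn gave -0.473 to 0.688 for Ccl17, -0.245 to 0.124 for Ccrl2 and -0.643 to 0.568 for Cxcl9. Cxcl12 with both agents against mock was 0.00186 with total counts.

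Same-numbered libraries did not deviate together (correlations of -0.0549 to 0.0230 over 21 pairs). Replicates differed little beyond counting error (chi-square over degrees of freedom of 1.15 to 1.26), so these correlations could hardly have shown a pairing. The numbers were not taken as pairs because the labels do not say that they mark pairs. With the replicate block, all genes called numbered 9472 with TGF-b1 against mock, 11190 with SB431542 against TGF-b1, 8539 with both agents against mock, 7533 in HFD against CD and 7063 in Itga5-High against Itga5-Low, and the members' counts did not move. Members with few counts are limited by depth, and 3 libraries a group limit all comparisons.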
